A study of Mus musculus
Mus spretus with 18 samples.

Results

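Mitochondria fuse and divide, and 6 genes that carry out these steps were followed here: Dnm1l, Mff and Fis1 on the fission side, and Mfn1, Mfn2 and Opa1 on the fusion side. They were taken by gene symbol from the deposited expression and splicing tables, where they are 6 of 38924 genes and hold 134 of 121350 autosomal skipped exon (SE) events. An SE event is 1 alternative exon with a given pair of flanking exons, so the 134 events describe 67 exons. Of these events, 128 had at least 20 junction reads in both libraries of at least 1 group, and all 67 exons were among them.

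The division of a mitochondrion depends on Dnm1l (also called Drp1), a dynamin-like GTPase that is recruited from the cytosol and constricts the outer membrane. Mff and Fis1 are tail-anchored proteins of the outer membrane that act as its adaptors, and Mff is regarded as the main one in mammalian cells. The mitofusins Mfn1 and Mfn2 are GTPases that join outer membranes, and Opa1 is the GTPase that joins inner membranes and holds cristae in shape. Neurons, which send mitochondria along their processes, and cardiomyocytes, which are packed with them, are cell types in which loss of these genes is known to do harm.

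RNA-seq was made from F1 hybrids of a C57BL/6J mother and a SPRET/EiJ father, so that each library holds both alleles in the same cells. Groups of 2 libraries each came from cerebral cortex, heart, kidney, lung, spleen and liver of 8-week-old female mice, from F1 embryonic stem cells (ESC, 2 independent clones), and from cultured F1 fibroblasts given DMSO or 0.1 µM pladienolide B (PladB), an inhibitor of the SF3B complex of the spliceosome, for 4 h. The study states that 5 of the organs were taken from 2 animals and that the liver data, from the same animals, came from an earlier study. The fibroblasts were a cell line derived earlier from the same F1 mice, and how their libraries were separated was not stated. Inclusion is given as percent spliced in (PSI), on a scale from 0 to 1, from junction reads corrected for the effective lengths of both forms. An event was called where the adjusted p was below 0.05 and the difference in PSI at least 0.1.

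The labels were checked first. The 2 liver libraries are labelled C57BL/7J and C57BL/8J where all others read C57BL/6J, which may be a slip in the labels. Of 32 marker genes, 30 were highest in every library of their own group. Thy1 and Pdgfra, both fibroblast markers, were not. The lowest fibroblast value of Thy1 was 5.51 TPM against 1046 in cortex replicate 2, and that of Pdgfra 82.6 against 111 in lung replicate 2. Imprinted genes put over 90% of their allelic reads on the active parental allele in 6 of 6 cases in DMSO fibroblasts and in 8 of 11 in cortex, but in 0 of 10 cases in ESC. The allele columns of ESC were therefore checked by sign, and 125 of the 128 large allelic differences of cortex pointed the same way in ESC. Since ESC departed from the other groups in imprinted genes, each result over tissues was repeated without its libraries.

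The expression of all 6 genes differed between the 7 tissues, in a table where nearly every gene did (background 99.5% of 21925 genes, limma). In bulk samples, fewer cells of a type and less RNA per cell cannot be told apart. Values are in TPM, a unit that corrects for gene length and library size.

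Of the fission genes, Dnm1l was highest in cortex, at 247 and 248 TPM in the 2 libraries. It followed in ESC with 135 and 130 TPM, in heart with 63.3 and 66.0, and in spleen with 51.8 and 52.7, and it was lowest in lung with 36.4 and 36.4 and in liver with 29.4 and 29.3. Kidney, with 52.0 and 50.4 TPM, overlapped spleen, and all other neighbours in this order were separate. The adaptor Mff had the same top and bottom, with 140 and 147 TPM in cortex and 16.2 and 14.8 in liver. In between lay heart with 65.5 and 65.7 TPM, lung with 47.4 and 48.8, kidney with 48.3 and 46.2, spleen with 39.4 and 38.7, and ESC with 40.4 and 35.7. Lung and kidney overlapped, as did spleen and ESC. Fis1 was the flattest of the 3 outside liver. It lay at 144 and 144 TPM in cortex, 159 and 125 in spleen, 137 and 129 in lung, 114 and 111 in kidney, 103 and 101 in heart, 83.9 and 85.9 in ESC, and 39.8 and 36.3 in liver. The spleen libraries of Fis1 spanned the values of both cortex and lung.

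The fusion genes had heart or cortex at the top. Mfn2 reached 627 and 597 TPM in heart, and no other library passed 145 TPM. Its order went on through cortex with 134 and 145 TPM, kidney with 88.4 and 89.97, lung with 50.8 and 51.4, liver with 42.8 and 43.7, spleen with 35.0 and 33.5, and ESC with 23.2 and 15.5, with no overlap between neighbours. Mfn1 was also highest in heart, at 169 and 169 TPM. Next came ESC, whose clones disagreed with 71.2 and 132 TPM, then cortex with 65.1 and 61.1, kidney with 47.4 and 46.6, lung with 28.2 and 29.4, liver with 21.3 and 19.9, and spleen with 17.6 and 17.8. Opa1 was highest in cortex with 90.8 and 92.5 TPM and second in heart with 60.9 and 65.9. It then fell through kidney with 48.9 and 47.3, ESC with 40.9 and 33.6, liver with 28.8 and 27.9, and spleen with 20.5 and 22.2, to lung with 14.8 and 16.2. None of the neighbours in the orders of Mfn1 and Opa1 overlapped.

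**Figure D1:**
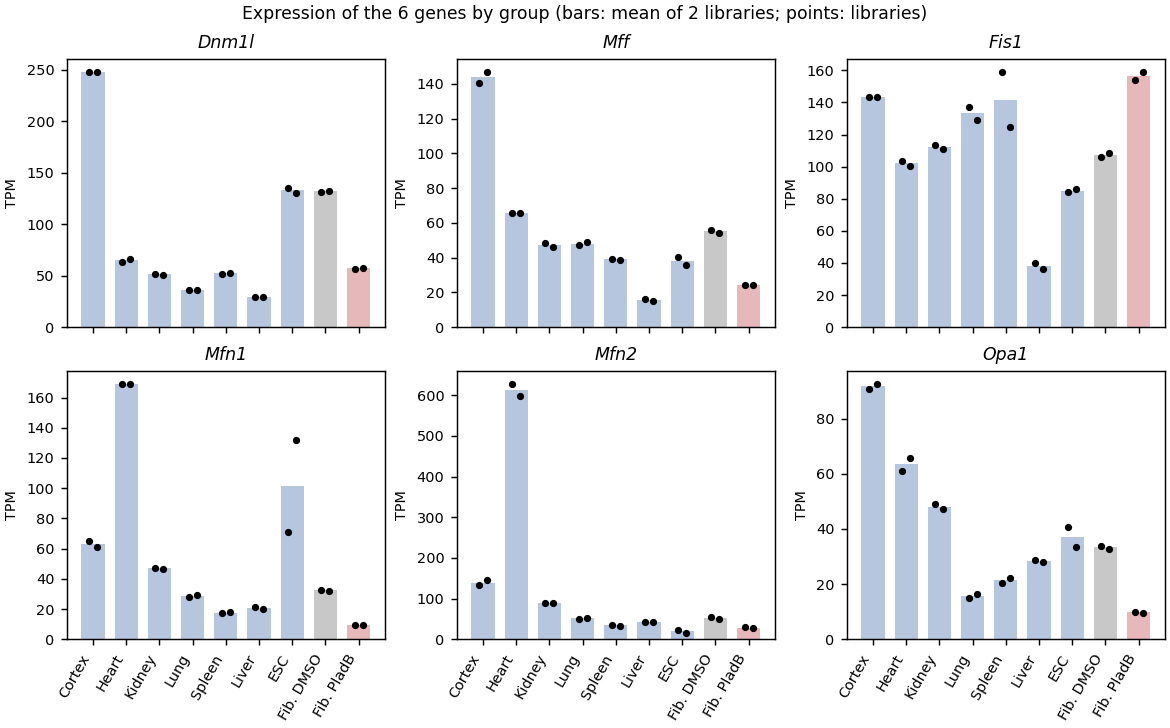
Expression of the 6 genes in TPM (linear axis from 0) in each of the 9 groups; bars are means of 2 libraries and points are the libraries. Mfn2 in heart reaches 627 and 597 TPM, Dnm1l in cortex 247 and 248 TPM, and only Fis1 is higher with PladB than with DMSO.

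Against the mean of the other 6 tissues, on the log2(TPM + 0.1) scale, 4 of the 6 genes were at least 1 log2 unit higher in cortex, where 35.4% of all genes were called higher, 20.2% lower and 55.5% in either direction. They were Dnm1l with a log2 difference of 2.20 ± 0.05 (SE; adjusted p = 9.47e-11), Mff with 1.89 ± 0.06 (adjusted p = 1.58e-09), Opa1 with 1.52 ± 0.08 (adjusted p = 4.36e-08) and Mfn2 with 1.09 ± 0.11 (adjusted p = 9.92e-06). Fis1 with 0.61 and Mfn1 with 0.49 stayed under the limit. The median gene was itself 0.38 higher in cortex, and relative to that difference Dnm1l (1.82), Mff (1.504) and Opa1 (1.14) were past 1 and Mfn2 (0.71) was not. Centring each library on its own median level was a stronger correction, since those medians differed by 0.89. Of the 4 genes only Dnm1l, with 1.31, was then past the limit, Mff lay at 0.996, Fis1 and Mfn1 turned to −0.28 and −0.40, and 37.9% rather than 63.7% of all cortex calls were higher. Without the ESC libraries the difference of Mfn2 in cortex was 0.73, under the limit.

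In heart, 2 of the 6 genes were called, both mitofusins and both higher (background 11.6% higher, 37.5% lower, 49.1% in all). Mfn2 was 3.58 ± 0.11 log2 units or 11.9-fold above the mean of the other tissues (adjusted p = 5.3e-09), and Mfn1 2.15 ± 0.16 or 4.43-fold (adjusted p = 1.5e-06). Opa1 with 0.90, Mff with 0.57, Fis1 with 0.03 and Dnm1l with −0.06 were not called. The median gene was 0.72 lower in heart, a difference of −0.72, and centring on library medians raised the count to 4 by adding Opa1 with 1.56 and Mff with 1.23. It also turned Dnm1l to 0.60, and 52.3% rather than 23.7% of all heart calls were then higher. No gene of the 6 was called lower in either organ.

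Splicing differed between tissues in 15 of the 63 events of the 6 genes that were tested, or 10 of 39 exons, against 8.20% of the 47963 events tested in all. These 10 exons were 4 of Mff, 2 of Dnm1l, 2 of Opa1 and 1 each of Mfn2 and Fis1, and Mfn1 had none. Cortex differed from the other tissues in 10 of 37 events (background 9.83%), with 7 higher (5.16%) and 3 lower (4.66%). Heart differed in 10 of 35 events (6.70%), with 9 higher (3.41%) and 1 lower (3.30%). Of the 10 exons called, 8 have a length divisible by 3, against 8 of the 29 exons tested and not called and 16909 of all 40695 exons tested. Their median length was 67.5 bp, and that of the exons not called was 125 bp.

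Most other events of the 6 genes sat close to full inclusion. PSI was above 0.9 in every library measured for 29 of 34 events of Dnm1l, 17 of 33 of Mff, 2 of 4 of Fis1, 18 of 19 of Mfn1, 22 of 23 of Mfn2 and 12 of 15 of Opa1. Coordinates below are of mm10, and each exon is shown by its called event with the most junction reads unless others are named.

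In Dnm1l, a gene at chr16:16312228-16359038 on the minus strand, a 33-bp exon (chr16:16318445-16318477) and a 39-bp exon (chr16:16342697-16342735) differed between tissues, on 220 to 2023 reads per library. The PSI of the 33-bp exon was 0.928 and 0.909 in cortex, 0.778 and 0.696 in spleen, 0.724 and 0.651 in ESC, 0.418 and 0.346 in kidney, 0.404 and 0.323 in lung, 0.368 and 0.320 in liver, and 0.230 and 0.263 in heart. Cortex was above and heart below every other tissue, spleen and ESC overlapped, and so did kidney, lung and liver. The range of tissue means was 0.672 (adjusted p = 4.17e-08). Cortex was 0.458 above the mean of the others (adjusted p = 1.59e-08) and heart 0.325 below it, with a difference of −0.325 (adjusted p = 3.98e-07). Fibroblasts went further down, to 0.036 and 0.025 with DMSO.

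The 39-bp exon of Dnm1l was used in cortex, with PSI of 0.581 and 0.520, and hardly elsewhere. The highest other tissue library was ESC replicate 2 with 0.115, and the remaining 11 lay at or below 0.063. Cortex was 0.505 above the mean of the other tissues (adjusted p = 6.15e-10).

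Mff, at chr1:82724890-82752390 on the plus strand, has a run of 4 alternative exons of 75, 159, 33 and 60 bp between an exon with forms of 89 and 92 bp and an 85-bp exon. All 4 differed between tissues, and they account for 9 of the 15 events called. The 159-bp exon (chr1:82741818-82741976), between the 89-bp and 60-bp exons, had PSI of 0.896 and 0.915 in cortex and 0.654 and 0.660 in heart. It lay at 0.508 and 0.545 in liver, 0.393 and 0.442 in kidney, 0.324 and 0.204 in ESC, 0.187 and 0.274 in spleen, and 0.244 and 0.201 in lung. Cortex and heart were each separate from all others, and the last 3 tissues overlapped. Measured against the 85-bp exon downstream, the same exon had 0.730 and 0.721 in cortex, 0.539 and 0.563 in heart and at most 0.198 in any other tissue library. Events of the 159-bp exon measured from the 75-bp exon had another order. Their skipping form needs the 75-bp exon, while reads joining the 159-bp exon to the next exon count with or without it. The order thus also depends on how much each tissue used the 75-bp exon. Before the 60-bp exon the 159-bp exon was lowest in lung with a mean of 0.689 and at 0.897 or higher in the other tissue libraries measured (adjusted p = 0.000601). Before the 85-bp exon it was at 0.914 and 0.974 in heart, 0.917 and 0.705 in kidney, 0.737 and 0.755 in cortex, and 0.458 and 0.242 in spleen, with lung between cortex and spleen (adjusted p = 0.00219). Between the 89-bp and 85-bp exons, cortex was 0.542 above the other tissues (adjusted p = 2.4e-11) and heart 0.338 above them (adjusted p = 4.26e-08).

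The 75-bp exon of Mff (chr1:82737013-82737087) was the one most used in heart. With the 159-bp exon as the next exon, its PSI was 0.599 and 0.541 in heart, 0.463 and 0.496 in lung, 0.331 and 0.220 in spleen, 0.126 and 0.340 in ESC, 0.110 and 0.079 in liver, 0.062 and 0.063 in cortex, and 0.064 and 0.056 in kidney. With the 85-bp exon next, heart had 0.645 and 0.593, cortex 0.223 and 0.221, and lung 0.117 and 0.133. With the 60-bp exon next, an event without enough reads in ESC, heart had 0.504 and 0.469, cortex 0.367 and 0.421, and lung 0.201 and 0.171. Heart was the highest tissue in all 3 measurements and differed from the mean of the others by 0.369 (adjusted p = 3.73e-08), 0.540 (adjusted p = 7.05e-12) and 0.326 (adjusted p = 1.07e-08). The place of cortex depended on the next exon, with a difference of −0.223 (adjusted p = 4.97e-06) before the 159-bp exon and 0.215 (adjusted p = 4.35e-06) before the 60-bp exon. The 3 events share junction reads and are not independent.

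The 33-bp exon of Mff (chr1:82745524-82745556), between the 89-bp and 60-bp exons, was highest in cortex, with PSI of 0.540 and 0.561 there, 0.243 and 0.231 in heart and at most 0.161 in the other tissue libraries. Cortex was 0.454 above the rest (adjusted p = 3.03e-07). Measured from a 338-bp exon instead, the 33-bp exon had 0.303 and 0.268 in cortex and 0.145 to 0.246 in the other organs. In that event ESC had 0.044 and 0.462, so that ESC replicate 2 was above cortex. The 60-bp exon (chr1:82747083-82747142), between the 92-bp and 85-bp exons, was high in both organs, with 0.814 and 0.803 in heart and 0.747 and 0.741 in cortex. It was intermediate in lung with 0.464 and 0.529, liver with 0.432 and 0.395, kidney with 0.389 and 0.403, and ESC with 0.348 and 0.335, and lowest in spleen with 0.198 and 0.213, with an overlap only between liver and kidney. Heart was 0.375 (adjusted p = 1.63e-09) and cortex 0.3004 (adjusted p = 1.3e-08) above the mean of the other tissues. Measured from the 159-bp exon, the 60-bp exon had PSI of 0.920 to 0.990 in all tissue libraries measured, and from the 75-bp exon 0.857 to 1.000. Neither event was called.

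Fis1, at chr5:136953275-136966234 on the plus strand, gave 1 call that rested on ESC. Its 133-bp exon (chr5:136962999-136963131), downstream of a 316-bp exon, had PSI of 0.913 and 0.768 in the ESC clones and of 0.972 to 0.989 in the 12 organ libraries. The range of tissue means was 0.144 (adjusted p = 0.00154). Without both ESC libraries it was 0.0098 (adjusted p = 0.973), and without ESC replicate 2 it was 0.0717. Downstream of a 152-bp exon, the same 133-bp exon was not called. Of the tissues, only lung, spleen and ESC had enough reads for that event. Its PSI was 1.000 and 0.997 in the ESC clones and no lower than 0.997 in lung and spleen. The lower inclusion in ESC was thus seen only with the 316-bp exon upstream.

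Of the fusion genes, Mfn1 at chr3:32529443-32579225 on the plus strand had no call among its 11 events tested over tissues, in 10 exons. Its PSI was 0.946 or higher in every library and event except 1 event of a 125-bp exon, which had 0.581 in cortex replicate 2.

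Mfn2, at chr4:147873586-147904909 on the minus strand, held the widest range of all, in an 83-bp exon (chr4:147902928-147903010) between exons of 143 and 179 bp. PSI was 0.973 and 0.972 in heart on up to 15941 reads per library, 0.116 and 0.115 in lung, 0.031 and 0.031 in cortex, 0.024 and 0.011 in liver, and at most 0.007 in kidney, spleen and ESC libraries. Heart stood alone near full inclusion and every other tissue near full skipping. The difference of heart from the others was 0.944 (adjusted p = 1.55e-14) and the range of tissue means 0.971 (adjusted p = 2.85e-14). Heart is also where Mfn2 was most expressed. The same exon, measured against a 136-bp flanking exon, had PSI of 0.962 and 0.960 in cortex, the only tissue where that event had enough reads, with 51 inclusion reads and 1 skipping read in replicate 1 and 48 and 1 in replicate 2. The skipping form of that event leaves out the 179-bp exon as well, so its PSI cannot be compared with that of the other event.

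Opa1, at chr16:29579281-29663127 on the plus strand, had 2 exons that were lowest in cortex. PSI of the 111-bp exon (chr16:29597586-29597696) was 0.125 and 0.114 in cortex, 0.202 and 0.197 in lung, 0.317 and 0.319 in spleen, 0.258 and 0.433 in ESC, 0.555 and 0.512 in heart, 0.580 and 0.546 in kidney, and 0.597 and 0.593 in liver. Heart and kidney overlapped, and ESC spanned spleen. Cortex was 0.306 below the other tissues, a difference of −0.306 (adjusted p = 1.19e-06), and heart 0.177 above them (adjusted p = 0.000156). The 54-bp exon (chr16:29588823-29588876) had 0.092 and 0.081 in cortex and 0.440 and 0.450 in liver, with kidney at 0.373 and 0.408, spleen at 0.331 and 0.361, heart at 0.274 and 0.272, ESC at 0.241 and 0.261, and lung split at 0.137 and 0.313. The lung libraries spanned those of heart and ESC, and cortex was below all others. For this exon cortex differed by −0.235 (adjusted p = 1.98e-07) and heart was not called.

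**Figure D2:**
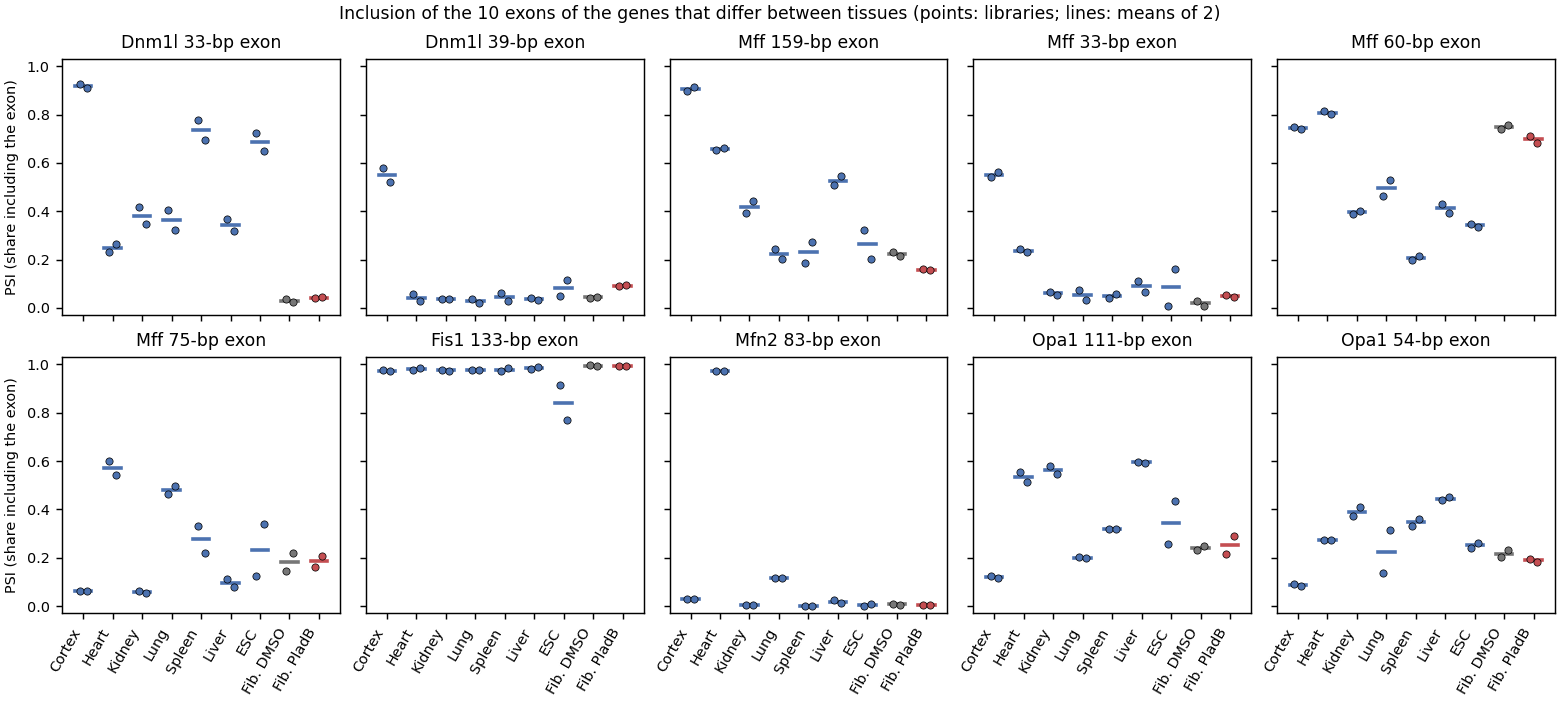
PSI (0 to 1) of the 10 exons of the genes that differed between tissues, in the 9 groups; points are libraries, lines are means of 2, and each exon is shown by its event with the most reads among those called. The Mfn2 83-bp exon is at 0.973 and 0.972 in heart and at most 0.116 elsewhere, and the Dnm1l 39-bp exon is at 0.581 and 0.520 in cortex and at most 0.115 elsewhere.

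The design also asks whether the C57BL/6J and SPRET/EiJ alleles are spliced differently in the same cells. Over the 7 tissues, 250 pairs of an event and a tissue had at least 20 reads on each allele in both libraries. Of these, 236 were tested and 14 were not, since the PSI of allele-assigned reads differed from that of all reads by over 0.1. There were 16 calls (background 1.46%), and all 16 lay in Mff, with 4 higher on the C57BL/6J allele (0.837%) and 12 higher on the SPRET/EiJ allele (0.620%). The study had already named an Mff exon as a candidate, picked in these data partly for its large allelic difference. The background is therefore no independent measure of the Mff calls. By tissue, 6 of 46 events were called in cortex (1.87%), 3 of 35 in heart (1.97%), 2 of 33 in kidney (1.69%), 3 of 32 in lung (2.07%) and 2 of 28 in spleen (1.74%). These calls lay in 2 exons each in cortex, heart, lung and spleen and in 1 exon in kidney. Events of the same exon were counted apart although they share junction reads, so the calls are not independent. None of 26 was called in liver (1.19%) or of 36 in ESC (0.171%) by the quasi-binomial test.

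Both alleles of a library come from the same cells, and blocking by library raised the count from 16 to 21. Differences are given as C57BL/6J minus SPRET/EiJ. The block added 1 event in heart (4 calls, background 3.56%), the 159-bp exon of Mff after the 75-bp exon with a difference of 0.111 (adjusted p = 0.0417). In ESC it gave 4 calls (background 2.08%). They included the 109-bp exon of Mff with 0.126 (adjusted p = 2.41e-06), its 92-bp exon with 0.233 (adjusted p = 2.04e-08) and its 89-bp exon with 0.111 (adjusted p = 3.34e-05). The remaining call was the 133-bp exon of Fis1 after the 316-bp exon, with −0.160 (adjusted p = 0.00742).

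The leading difference was in the 75-bp exon of Mff, which was almost unused on the C57BL/6J allele in all groups. Before the 60-bp exon, the heart libraries had PSI of 0.039 and 0.036 on the C57BL/6J allele and 0.897 and 0.883 on the SPRET/EiJ allele, a difference of −0.853 (adjusted p = 2.61e-06). The reads behind replicate 1 were 18 inclusion and 223 skipping reads on the C57BL/6J allele and 729 and 42 on the SPRET/EiJ allele. Cortex had 0.123 and 0.098 against 0.723 and 0.794, a difference of −0.648 (adjusted p = 0.000201). Lung had 0.018 and 0.009 against 0.516 and 0.461, a difference of −0.475 (adjusted p = 1.06e-05). In each of these tissues the alleles did not overlap.

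Smaller differences in the same event were called in spleen, with 0.023 and 0.032 against 0.173 and 0.287 (−0.203, adjusted p = 0.0487), and in kidney, with 0.015 and 0.009 against 0.133 and 0.096 (−0.102, adjusted p = 0.0366). Liver had 0.000 and 0.000 against 0.126 and 0.276, and was not called. The SPRET/EiJ allele was higher in both libraries of each of these tissues too.

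Before the 85-bp exon, heart had 0.067 and 0.044 on the C57BL/6J allele and 0.804 and 0.793 on the SPRET/EiJ allele (−0.743, adjusted p = 2.32e-05). Cortex had 0.054 and 0.034 against 0.411 and 0.405 (−0.364, adjusted p = 0.000147), and lung 0.006 and 0.005 against 0.247 and 0.255 (−0.245, adjusted p = 1.54e-05). In ESC this event had 0.009 and 0.005 against 0.058 and 0.114. Before the 159-bp exon, differences of −0.186 in cortex (adjusted p = 0.00131) and −0.272 in kidney (adjusted p = 0.0176) were called. In heart that event had 0.091 and 0.067 against 0.996 and 0.983, and in lung 0.065 and 0.079 against 0.923 and 0.921, and both pairs were among the 14 not tested. Without the consistency limit they were called, with −0.910 (adjusted p = 1.22e-06) and −0.849 (adjusted p = 5.25e-05).

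Over the 3 events, the highest PSI of the 75-bp exon on the C57BL/6J allele in any library was 0.123, and the SPRET/EiJ allele was higher in 12 of 12, 18 of 18 and 16 of 16 libraries measured. On that allele, heart was the highest tissue in each event. These counts and ranks include pairs outside the consistency limit, such as heart and lung before the 159-bp exon.

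**Figure D3:**
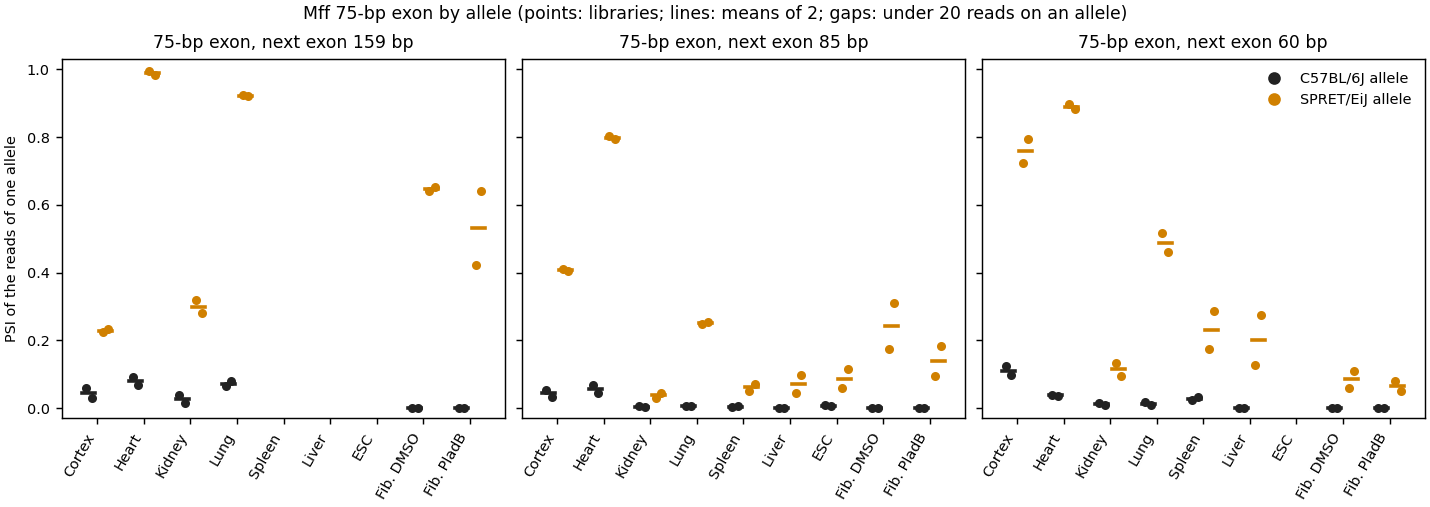
PSI of the Mff 75-bp exon by allele (black C57BL/6J, orange SPRET/EiJ) in the 9 groups, 1 panel for each exon that follows it; points are libraries and lines are means of 2, and groups under 20 reads on an allele are left blank. C57BL/6J values stay at or below 0.123, and SPRET/EiJ values reach 0.897 in heart in the panel with the 60-bp exon next.

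Events of the other exons of the Mff run also differed by allele. They share junction reads with events of the 75-bp exon and are not independent of its difference. Whether these exons differ apart from it was not tested. In cortex the 159-bp exon was lower on the C57BL/6J allele when measured from the 89-bp exon, with 0.740 and 0.799 against 0.895 and 0.926 (−0.141, adjusted p = 0.0466). Measured from the 75-bp exon it was higher on that allele, with 0.988 and 1.000 against 0.780 and 0.805 before the 60-bp exon (0.201, adjusted p = 0.0104), and with 1.000 and 1.000 against 0.552 and 0.582 before the 85-bp exon (0.433, adjusted p = 0.0145). In heart this exon had 0.425 and 0.463 against 0.747 and 0.709 between the 89-bp and 60-bp exons, a pair that was not tested for the consistency limit and was called without it (−0.284, adjusted p = 0.0109). A further heart event, between the 89-bp and 85-bp exons, went the opposite way with 0.431 and 0.422 against 0.039 and 0.085, was not tested either, and was called without the limit (0.365, adjusted p = 0.00253). Also in heart, the 33-bp exon had 0.094 and 0.093 against 0.492 and 0.343 (−0.324, adjusted p = 0.0128).

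The 60-bp exon, measured from the 75-bp exon, was fully included on the C57BL/6J allele in spleen and lung. On the SPRET/EiJ allele it had 0.753 and 0.627 in spleen (0.310, adjusted p = 0.0323) and 0.859 and 0.892 in lung (0.125, adjusted p = 0.0174). The skipping form of these events joins the 75-bp exon to the 85-bp exon, and the C57BL/6J allele used the 75-bp exon little. Reads joining the 60-bp and 85-bp exons count as inclusion with or without the 75-bp exon. The values therefore do not isolate transcripts that contain the 75-bp exon.

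**Figure D4:**
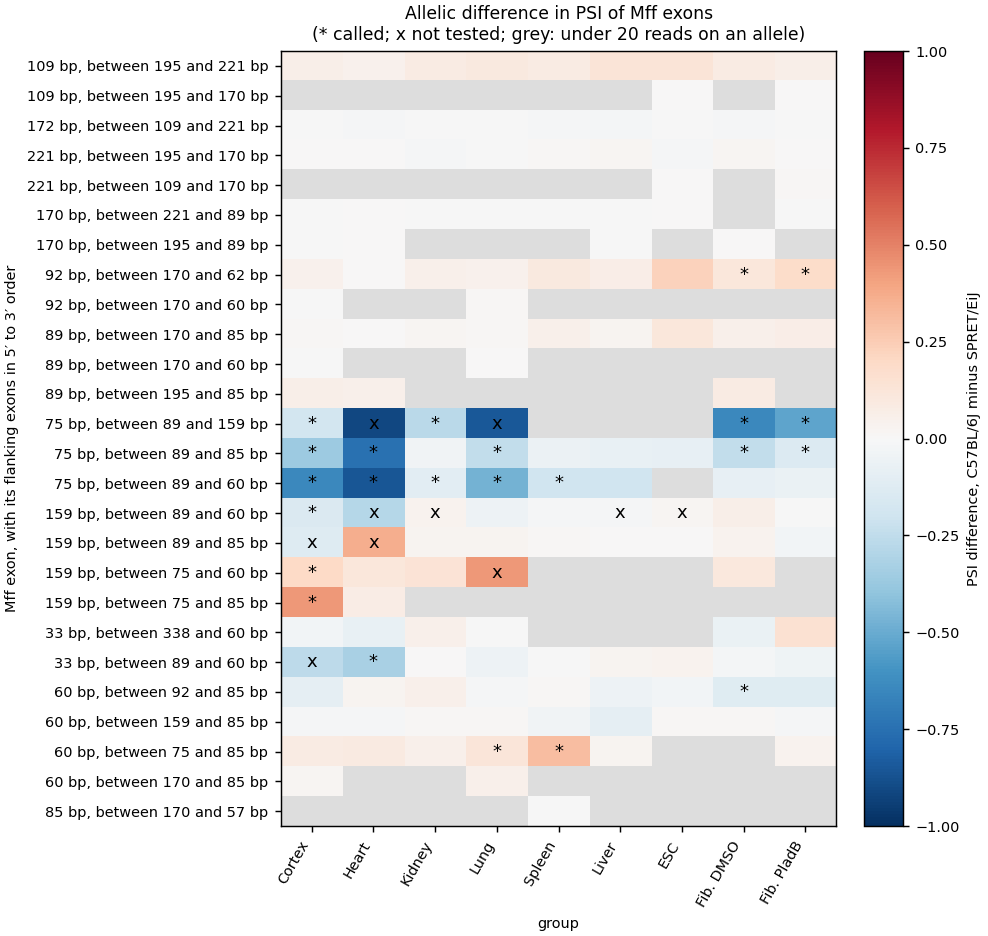
Difference in PSI, C57BL/6J minus SPRET/EiJ (colour scale from −1 to 1), for the Mff events measured on both alleles in the 9 groups; rows give the exon and its flanking exons by length, stars mark calls, crosses mark pairs not tested, and grey marks fewer than 20 reads on an allele. The 75-bp exon is lower on C57BL/6J in every group measured, down to −0.853 among the tested pairs of heart.

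The remaining 5 genes had no allelic call without the library as a block. In their 126 pairs the median absolute difference in PSI was 0.0059 and 6 pairs reached 0.1. The widest was the 111-bp exon of Opa1 in spleen with 0.183 (adjusted p = 0.347). The same exon differed by 0.155 in heart, where it was not tested, and by 0.155 in lung (adjusted p = 0.402).

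Whether an allelic difference changed between tissues was tested as an interaction on the logit scale. Where 1 allele stays at a PSI of 0 or 1 in the tissues tested, this test cannot show a change. None of 47 events was called (background 0.0221%), and 3 of 47 had an unadjusted p under 0.05 (background 1.70%). The lowest adjusted p was 0.302, for the 75-bp exon before the 60-bp exon, whose allelic difference ranged by 0.751 between tissues, and it was 0.0571 with the library as a block. Without the consistency limit, which had kept pairs of heart and lung out, 2 events of Mff were called. They were the 75-bp exon before the 159-bp exon with a range of 0.725 (adjusted p = 0.00146) and the 159-bp exon between the 89-bp and 85-bp exons with 0.492 (adjusted p = 0.0473).

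Fibroblasts, which were not among the tissues, gave 4 calls of 37 events with DMSO (background 2.48%), again all in Mff. The 75-bp exon had 0.000 and 0.000 on the C57BL/6J allele and 0.642 and 0.652 on the SPRET/EiJ allele before the 159-bp exon (−0.647, adjusted p = 1.66e-08), and a difference of −0.242 before the 85-bp exon (adjusted p = 2.42e-05). The other calls were the 92-bp exon with 0.115 (adjusted p = 0.00861) and the 60-bp exon after the 92-bp exon with −0.122 (adjusted p = 0.0163).

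With PladB, 3 of 63 events were called (background 2.13%). The 75-bp exon had 0.000 and 0.000 against 0.422 and 0.641 before the 159-bp exon (−0.531, adjusted p = 0.000208) and a difference of −0.139 before the 85-bp exon (adjusted p = 0.00692), and the 92-bp exon differed by 0.185 (adjusted p = 0.0324). With the library as a block there were 4 calls (background 2.74%), the fourth being the 47-bp exon of Dnm1l with 0.121 (adjusted p = 0.0443). No interaction of allele and treatment was called in 30 events (background 0.0374%), and none had an unadjusted p under 0.05 (background 3.85%).

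Inhibition of the spliceosome with PladB changed the TPM of all 6 genes, as it did of 89.0% of the 13577 genes tested. The other 5 were lower (background 73.4%) and Fis1 alone was higher (15.6%). Fis1 went from 106 and 109 TPM with DMSO to 154 and 159 with PladB, a log2 difference of 0.54 ± 0.04 (adjusted p = 9.14e-05). Opa1 went from 33.8 and 32.9 to 9.93 and 9.54 TPM (−1.77 ± 0.05, adjusted p = 5.36e-06), and Mfn1 from 32.8 and 32.0 to 9.65 and 9.64 (−1.74 ± 0.05, adjusted p = 4.79e-06). The libraries of the 2 treatments did not overlap for any of them.

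Dnm1l went from 131 and 132 to 56.8 and 57.7 TPM (−1.20 ± 0.04, adjusted p = 5.58e-06), Mff from 56.1 and 54.3 to 24.5 and 24.0 (−1.19 ± 0.04, adjusted p = 9.67e-06), and Mfn2 from 54.5 and 50.4 to 29.03 and 26.7 (−0.91 ± 0.07, adjusted p = 0.000109). TPM are shares of a library, and the median gene was itself lower by 1.15, a log2 difference of −1.15. Relative to that difference Dnm1l (−0.05) and Mff (−0.03) lay close to the median gene, Fis1 (1.70) and Mfn2 (0.25) above it, and Mfn1 (−0.58) and Opa1 (−0.61) below it. The median levels of the libraries differed by more, −1.45, so that with libraries centred on them Dnm1l (0.25), Mff (0.26) and Mfn2 (0.54) turned to higher, Fis1 was at 1.99, Mfn1 at −0.29 and Opa1 at −0.32, and 58.7% rather than 17.6% of all calls were higher.

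PladB moved exon inclusion of these genes little. Of 86 events, 2 were called (background 8.32%), both in Mff. The 159-bp exon between the 89-bp and 85-bp exons went from 0.356 and 0.337 to 0.232 and 0.212 (−0.125, adjusted p = 0.00839), and the 33-bp exon after a 338-bp exon from 0.079 and 0.092 to 0.245 and 0.238 (0.156, adjusted p = 0.012). The treatments did not overlap in either, but with the replicate number as a block neither was called (adjusted p = 0.0854 and 0.0967; background 4.44%). Without DMSO replicate 1 there were 0 calls, and without PladB replicate 2 there was 1.

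By the adjusted p alone, 14 of the 86 events were lower (background 18.0%) and 2 higher (0.482%). Mean PSI was lower in 68 of 86, a direction shared by the median of all events. The median difference was −0.0041, against −0.0052 over all events. Dnm1l, with 28 events tested, held 9 of the 14, in 6 exons, with differences from −0.014 to −0.083. Mfn1 and Mfn2 had none among 5 and 16 events tested. The single retained intron of the 6 genes in the table, in Opa1, changed by 0.019 (adjusted p = 0.185; 38.2% of 1802 introns were called).

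**Figure D5:**
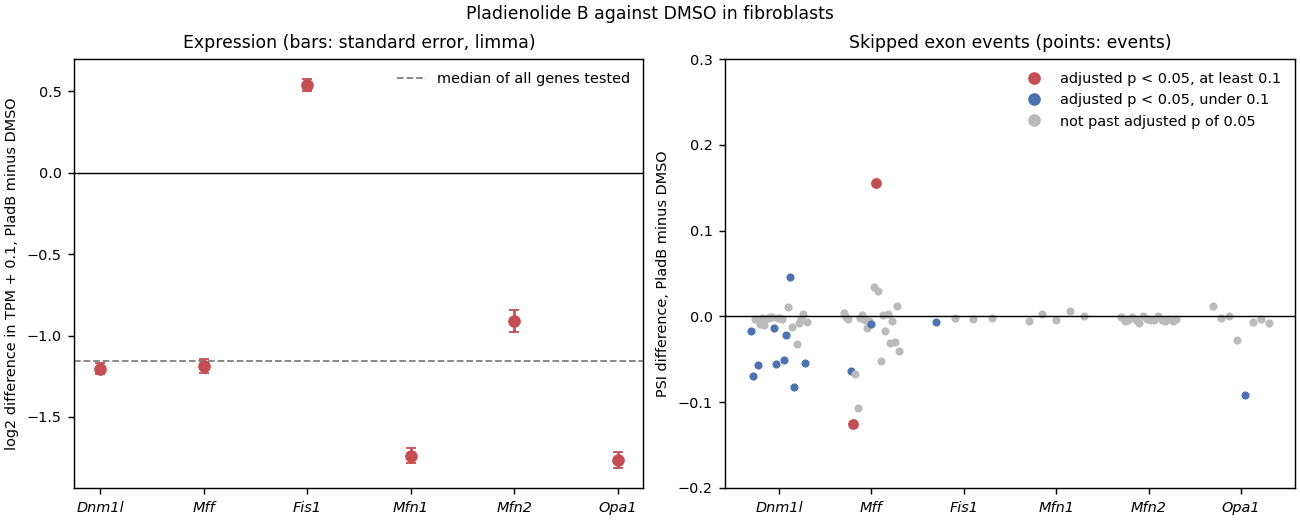
Effect of PladB against DMSO in fibroblasts: left, log2 difference in TPM + 0.1 with its standard error and the median of all genes tested as a dashed line at −1.15; right, PSI difference of the 86 skipped exon events tested, 1 point each. Fis1 is the only gene above 0, and the 2 red points are the called events of Mff, at −0.125 and 0.156.

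A list of 34 other genes of mitochondrial shape and transport was set beside the 6. Of the 33 expressed in tissues, 9 were higher and 3 lower in cortex, where 35.4% and 20.2% of all genes were. In heart 14 were higher and 5 lower, against 11.6% and 37.5% of all genes. With libraries centred on their medians the counts were 5 higher and 11 lower in cortex and 18 higher and 2 lower in heart. The medians of the list were 0.25 in cortex and 0.92 in heart, where those of all genes were 0.38 and −0.72. In heart the 3 genes of cristae and membrane architecture were all higher, namely Immt with 1.85, Chchd3 with 2.12 and Samm50 with 1.59. The kinase Pink1, which marks damaged mitochondria, was also higher, with 2.54, as was Mtfp1, an inner membrane protein of the fission process, with 3.15. Spire1, an actin nucleator linked to fission, was 4.17 higher in cortex and 1.82 lower in heart, with a difference of −1.82. After PladB 27 of 31 were lower and 1, Mief2, was higher, where 73.4% and 15.6% of all genes were. With libraries centred on their medians 14 were higher and 16 lower.

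Among all genes tested, those whose mean log2(TPM + 0.1) over the 7 tissues was most like that of a gene of the 6 were Pdp1 for Mff (r = 0.996), Iqcc for Fis1 (r = 0.993), Pirt for Mfn1 (r = 0.980), Aes for Mfn2 (r = 0.985) and Ndufaf4 for Opa1 (r = 0.959). These are descriptions over 7 points chosen as the highest of 21925. The exons of other genes with PSI most like the 83-bp exon of Mfn2, among 7912 events measured in all 7 tissues, were a 151-bp exon of Atg7, a 113-bp exon of Capzb, an 81-bp exon of Fxr1, a 39-bp exon of Acss2 and an 84-bp exon of Ablim1. Their mean absolute differences in PSI from it ran from 0.044 to 0.053.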

How the data were processed

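RNA was measured by stranded mRNA-seq in 18 libraries, 2 per group. Per the submitters' processing notes and the study's methods, reads were aligned with HISAT2 2.0.1 to mm10 and to a SPRET/EiJ genome and assigned to the closer allele. rMATS junction counts of inclusion and skipping reads, and a TPM table from featureCounts, were deposited by the authors. The authors' tables also give the effective length of each form, recorded here as a score. The deposited p-values, FDR values and inclusion differences of the authors' own comparisons were not used, nor was the study's FDR filter on allelic reads.

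PSI was tested by quasi-binomial logistic models over all autosomal events with at least 20 reads per library (and allele), with dispersions moderated by limma 3.58.1 (R 4.3.3), F tests and Benjamini-Hochberg adjustment over all events. Events were called at an adjusted p under 0.05 and a difference of at least 0.1. Allelic tests required the PSI of allelic reads within 0.1 of that of all reads. TPM were tested with limma on log2(TPM + 0.1), for genes with at least 1 TPM in 2 libraries, and cortex and heart calls also needed a log2 difference of 1. Fits ran in Python 3.11.15 and were tested on simulated data. Alternatives were the read minimum, the limit, the prior, the pseudocount, the filters, centring, blocks and leaving out libraries. All 6 genes and every exon called are named. The members and lists were chosen with earlier results of these data known. With 2 libraries per group, p-values rest on the spread between libraries, moderated over all events or genes. Read counts per event set the precision and cover counting error only. Gene spans came from RefSeq (GRCm38.p6). Sequences, and whether exons are coding, were not analysed here. The gene most like Dnm1l in expression is not reported here.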

Additional observations from a re-analysis of the deposited data

How the results depend on the processing

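The count of called events or genes stayed within 1.5 times its main value in 202 of 211 comparisons with an alternative. After PladB the 2 called events became 0 with a limit of 0.2 in PSI and 0 with the replicate number as a block, and ranged from 0 to 3 when each library was left out. A limit of 0.2 left 2 of 4 allelic calls in DMSO fibroblasts and 1 of 3 with PladB. Without the consistency limit the interaction of allele and tissue gave 2 calls in place of 0, and the allelic calls in tissues rose from 16 to 20. Centring on library medians gave 1 gene in cortex and 4 in heart in place of 4 and 2, and reversed the sign of the PladB effect on TPM for Mff (0.26), Dnm1l (0.25) and Mfn2 (0.54), by a library shift of −1.45 common to all genes. Set against the median gene, an alternative chosen after seeing the data, only Mfn2 changed sign (0.25). Leaving out 1 library at a time gave 15 to 16 events over tissues, 10 to 11 for cortex, 9 to 11 for heart, 15 to 16 allelic calls in tissues, 3 in DMSO and 2 to 3 in PladB fibroblasts. The call of the 159-bp exon of Mff after the 75-bp exon in heart was lost without kidney replicate 2 (adjusted p = 0.417). Allelic calls with an adjusted p near 0.05 in cortex, kidney, spleen and PladB fibroblasts were lost with a prior without a depth trend or a minimum of 50 reads (adjusted p from 0.0501 to 0.107).

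Replicate numbers were not shown to pair tissues or treatments. Deviations of same-numbered tissue libraries correlated from −0.132 to 0.072 in PSI (median −0.006, 21 pairs) and from −0.103 to 0.304 in TPM. In fibroblasts the correlations were −0.033 and −0.136. As a replicate block the numbers left 15, 10 and 10 events for tissue, cortex and heart and 6 genes after PladB, also with the numbers crossed, which was chosen after seeing the data, as was leaving out ESC. PSI from counts without effective lengths moved the range over tissues of all 15 called events by more than 1 SD, to values from 0.0804 to 0.982. Depth limits the skipping forms of near-constitutive exons and alleles with few reads, such as those of ESC and liver.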

Other observations

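Of the 198 tested events of the 34 other genes of mitochondrial shape and transport, 22 were called for tissue, in 12 genes, where 8.20% of all events were. The widest ranges of PSI over tissues were in Immt, a core component of the cristae junction complex, where alternative starts of 1 exon (138, 105 and 102 bp) ranged by 0.907, 0.912 and 0.902, and were lower in heart by 0.817, 0.831 and 0.764 (differences of −0.817, −0.831 and −0.764). A 15-bp exon of Chchd3, another member of that complex, was 0.617 higher in cortex (adjusted p = 2.73e-16). In Rhot1, the outer membrane GTPase that links mitochondria to motors, a 96-bp exon was lower in heart (−0.517) and a 123-bp exon higher (0.307).

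Allelic calls in these genes were 1 of 122 events in kidney (Mul1, 0.142; background 1.69%), 1 of 88 in lung (Immt, 0.234; 2.07%), 1 of 67 in liver (Spg7, 0.180; 1.19%), 1 of 122 in DMSO fibroblasts (Oma1, 0.337; 2.48%) and 1 of 121 in PladB fibroblasts (Mtfr1, 0.102; 2.13%). By the quasi-binomial test 0 were called among 114 events in cortex, 98 in heart, 99 in spleen and 153 in ESC. After PladB 13 of their 212 skipped exon events were called (background 8.32%), with the 121-bp exon of Mul1 at −0.768. Of 14 retained introns 11 were called (background 38.2%), with Mief2 at 0.676, 5 introns of Rhot2 from 0.157 to 0.329, and Spg7 lower at −0.459.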
